A study of Mus musculus with 16 samples.

Results

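The transcriptional response to pro:BMP9 that remains when endoglin is lost was described in mouse lung endothelial cells (MLECs) in which *Eng* had been deleted. Of the 16 RNA sequencing libraries of the series, 8 were taken, namely the 4 *Eng* KO libraries that received pro:BMP9 and the 4 KO libraries that received PBS, chosen by their labels. MLECs were isolated 4 times from Rosa26-CreERT2;Eng fl/fl; Immorto mice, which carry an inducible Cre in all tissues, floxed *Eng* alleles and a conditionally immortalising transgene. Part of each isolation was exposed to 4-OH-tamoxifen in culture to give KO cells, and part to vehicle to give Ctrl cells. KO cells were treated for 90 min with PBS or with pro:BMP9, dosed at 0.2 ng/ml of BMP9 growth factor domain. Ctrl cells, used here only to set their response beside that of KO cells, received PBS or sENG(M):BMP9 at the same dose and time. Cells of all groups were maintained before the experiment with interferon-γ (20 U/ml), heparin (100 µg/ml), FBS (10%) and, at 1 µM, SB431542, an inhibitor of the TGF-β type I receptor kinase. By the study's methods interferon-γ, SB431542 and 4-OH-tamoxifen were withdrawn a day before an overnight serum starvation, and the ligand was added to the starved cells. Loss of *Eng* cannot be told apart from exposure to 4-OH-tamoxifen here, nor can the genotype from the form of the ligand.

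BMP9 is a circulating ligand of the TGF-β family that signals in endothelial cells through the type I receptor ALK1, encoded by *Acvrl1*, and type II receptors such as BMPR2. The activated receptors phosphorylate SMAD1, SMAD5 and SMAD9, which enter the nucleus with SMAD4 and switch on *Id* genes and the inhibitors *Smad6* and *Smad7* within hours. Endoglin, encoded by *Eng*, is a co-receptor that binds BMP9, and mutations of *ENG* or *ACVRL1* cause hereditary haemorrhagic telangiectasia. Pro:BMP9 is the ligand still bound to its prodomain, the form found in the circulation, and sENG(M):BMP9 is the ligand in complex with monomeric soluble endoglin.

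The 8 KO libraries held between 14869115 and 16759576 counts, and 15693 genes had enough counts to be tested. Levels are given as CPM, which relate the counts of a gene to the TMM-adjusted total of its library, and libraries are listed in the order of isolations 1 to 4. *Eng* (ENSMUSG00000026814, chr2:32536607-32572681, plus strand; all coordinates GRCm39) was checked first. In PBS it stood at 40.1, 50.5, 54.3 and 59.98 CPM in KO cells, which was 9.27%, 8.51%, 14.5% and 13.7% of the Ctrl library of the same isolation. Deletion was therefore seen in all 4 isolations but some *Eng* counts remained, and counts of a whole gene do not separate transcripts that lack the deleted exons from intact ones. The 21 endothelial markers summed to between 4833 and 9837 CPM in PBS and between 4985 and 10001 CPM with pro:BMP9. The 18 mural and fibroblast markers summed to 282 to 1043 CPM in PBS and 279 to 1039 CPM with ligand. Epithelial and mesothelial markers summed to 80.7 to 331 CPM and 88.2 to 347 CPM, with *Nkx2-1*, *Sftpa1* and *Sftpc* at 0 in all 8 libraries. Leukocyte markers summed to 40.8 to 53.7 CPM and 42.4 to 54.7 CPM, with *Ncr1* at 0. These sums were uneven among markers. *Cd68* alone stood at 31.3 to 39.7 CPM, with *Ptprc* at no more than 0.317. *Msln*, a mesothelial marker, reached 155 CPM, with *Epcam* at no more than 0.252. Of the mural, epithelial and leukocyte lists, 17 of 18, 6 of 13 and 4 of 12 markers had enough counts to be tested. None of these passed the threshold in either direction. In bulk RNA, a change in the number of cells of one type and a change of RNA per cell cannot be told apart.

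Pro:BMP9 changed 878 genes in KO cells at an adjusted p under 0.05 (quasi-likelihood test of edgeR, blocked by isolation, with Benjamini-Hochberg adjustment over the tested genes), which is 5.59% of those tested. Of these, 577 rose (3.68%) and 301 fell (1.92%). Shares of list members that rose or fell, given below, are to be read beside these. Most changes were small, with a median rise of 1.32-fold and a median fall to 80.9% of the PBS level. At least 2-fold rises were seen for 85 genes (0.542%), among them 24 of at least 4-fold, whereas 5 genes (0.0319%) fell at least 2-fold, namely *Mycn*, *Kcnj2*, *Ascl2*, *Opn3* and the pseudogene *Gm8818*, which was named after its values were seen. Over the 577 genes, the median log2 change was 0.42, 0.44, 0.36 and 0.35 in isolations 1 to 4, and 575 of them were higher in all 4. These genes were called from the same 4 isolations, so a shared direction is in large part set by the selection. Of all tested genes, 12.4% were higher in all 4 isolations and 11.3% lower. For 286 genes (1.82%) every library with pro:BMP9 lay above every PBS library, and for 133 genes (0.848%) every one lay below.

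**Figure D1:**
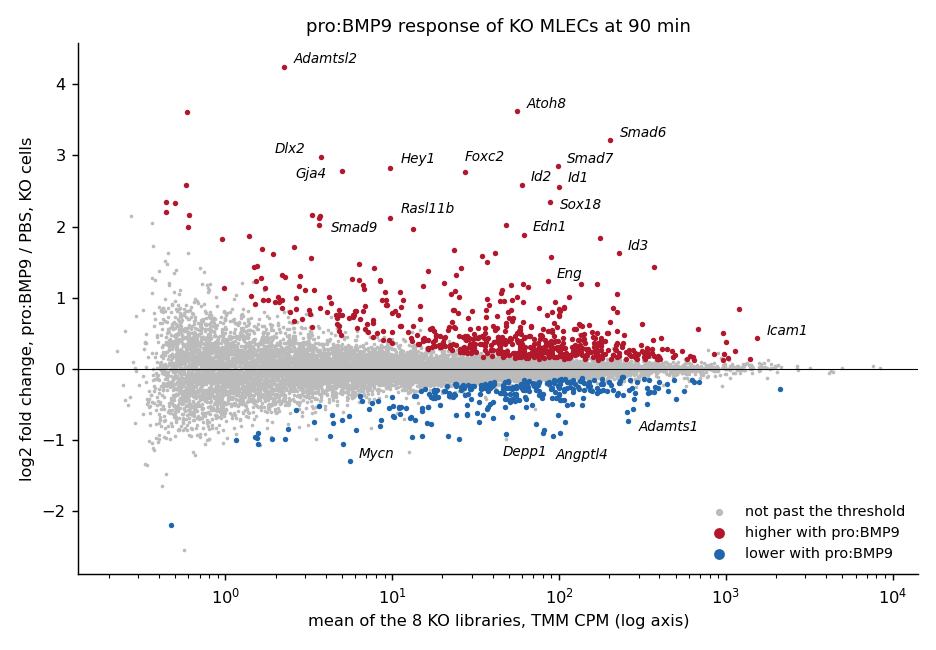
Each point is one of the tested genes in KO cells, with the mean of the 8 libraries on the x axis (TMM CPM, log axis) and the log2 fold change of pro:BMP9 over PBS on the y axis. Red genes rose and blue genes fell at an adjusted p under 0.05. The rises reach further from 0 than the falls, of which *Mycn* at -1.30 is labelled. *Nog*, with 1 count in the PBS libraries together, is not drawn.

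The genes that rose at least 2-fold were mostly lowly expressed before treatment, at a median of 4.22 CPM in PBS against 18.8 CPM over all tested genes. They were short genes of few exons, with a median of 4 exons and 8491 bases from first to last exon in the GENCODE annotation, against 7 exons and 19046 bases over all tested genes. Transcription factors made up 28 of the 85 (32.9%), against 18.4% of all genes that rose, 15.3% of those that fell and 6.77% of those tested. Basic helix-loop-helix factors, the family of the ID proteins, accounted for 9 of the 85 and for 52 of the 15693 tested genes.

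SMAD6 and SMAD7 are inhibitory SMADs that block the receptors and limit the pathway that induces them. *Smad6* (ENSMUSG00000036867, chr9:63860358-63929341, minus strand) stood at 36.3, 38.4, 38.7 and 44.9 CPM in PBS and at 349.6, 392, 326 and 400.3 CPM with pro:BMP9. The groups lay far apart in every isolation, and the rise was 9.25-fold (log2 fold change 3.21 ± 0.06, adjusted p 7.03e-17), the smallest adjusted p of all genes. *Smad7* rose from 23.2, 20.9, 26.9 and 24.1 CPM to 169, 201, 167 and 152 CPM (log2 fold change 2.85 ± 0.09, adjusted p 1.43e-13). Again no library of one group reached the other. Of 15 tested feedback genes and transcriptional repressors of the pathway, 8 rose (53.3%) and none fell, with a median log2 change of 0.51 against 0.00042 over all tested genes. *Smurf2*, a ubiquitin ligase that acts on SMADs and their receptors, had nearly the same level in the 4 isolations, at 142, 149, 146 and 147 CPM in PBS and 302, 304, 299 and 303 CPM with ligand (log2 fold change 1.05 ± 0.04, adjusted p 8.88e-13). *Pmepa1*, which sequesters receptor SMADs, rose 2.23-fold, and the decoy receptor *Bambi* rose 1.86-fold with overlapping groups. The SMAD co-repressors *Skil* and *Ski* rose 1.83-fold and 1.42-fold. Among the other 7 members, the log2 change lay between -0.18 and 0.14.

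All 4 *Id* genes rose. ID proteins lack a DNA-binding region and hold other helix-loop-helix factors off DNA. *Id1* (ENSMUSG00000042745, chr2:152578171-152579330, plus strand) went from 21.4, 19.8, 34.03 and 41.9 CPM to 123, 177, 171 and 209 CPM (log2 fold change 2.55 ± 0.13, adjusted p 2.05e-10). *Id2* went from 10.2, 12.9, 24.3 and 20.5 CPM to 80.4, 121, 90.4 and 119 CPM (log2 fold change 2.59 ± 0.18, adjusted p 1.18e-08). Both were lower in isolations 1 and 2 than in 3 and 4 before treatment, and in neither did the groups overlap. *Id3* rose 3.09-fold (log2 fold change 1.63 ± 0.08, adjusted p 4.79e-11) and *Id4* 2.48-fold (log2 fold change 1.31 ± 0.28, adjusted p 0.00613), although the adjusted p of *Id4* was 0.0944 without isolation 2. Per kilobase of the deposited gene length, *Id3* was the highest of the family with pro:BMP9, at a mean of 193 CPM per kb, against 147 for *Id1*, 42.05 for *Id2* and 1.04 for *Id4*.

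Of the 6 SMAD signal transducers, only *Smad9* rose, from 1.97, 1.64, 1.02 and 0.944 CPM to 5.59, 6.17, 4.996 and 7.33 CPM (log2 fold change 2.16 ± 0.26, adjusted p 1.97e-05). Its groups were separate, but its level stayed low, at 1.12 CPM per kb with ligand beside 14.2 for *Smad1* and 12.9 for *Smad5*. For *Smad1*, *Smad5* and *Smad4* the log2 change was -0.13 ± 0.05, 0.14 ± 0.04 and -0.02 ± 0.04, none past the threshold.

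The sequence GGCGCC is known as a binding motif of BMP-activated SMADs, and a copy in the *Id1* promoter belongs to its described BMP response element. Upstream sequences were read from GRCm39, 250 or 1500 bases before the canonical GENCODE start of each gene. Of the 15 genes with the largest rises, 7 held GGCGCC within 1500 bases of their start. Of these, 5 are shown, each as 100 bases around the copy nearest the start, 5′ to 3′ on the strand of the gene. The sequences of the others are not reported here. Capitals mark GGCGCC, and CAGAC or its reverse complement GTCTG would also be in capitals but occur in none of the 5 stretches. They lie at chr2:152577025-152577124 on the plus strand for *Id1*, chr9:63930291-63930390 on the minus strand for *Smad6*, chr3:54662863-54662962 on the plus strand for *Smad9*, chr2:71377145-71377244 on the minus strand for *Dlx2* and chr11:89193792-89193891 on the minus strand for *Nog*.
Id1: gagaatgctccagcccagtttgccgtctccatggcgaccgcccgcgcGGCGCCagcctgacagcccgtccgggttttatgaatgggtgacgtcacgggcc
Smad6: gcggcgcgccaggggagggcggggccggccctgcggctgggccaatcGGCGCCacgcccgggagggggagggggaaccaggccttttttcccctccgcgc
Smad9: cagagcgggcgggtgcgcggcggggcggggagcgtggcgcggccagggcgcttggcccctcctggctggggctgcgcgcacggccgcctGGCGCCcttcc
Dlx2: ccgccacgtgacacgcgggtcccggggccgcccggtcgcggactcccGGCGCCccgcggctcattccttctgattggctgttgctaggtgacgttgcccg
Nog: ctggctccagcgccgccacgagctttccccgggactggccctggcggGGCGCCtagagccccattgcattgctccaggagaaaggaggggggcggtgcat
The copy began 1093 bases before the start in *Id1*, 932 in *Smad6*, 11 in *Smad9*, 95 in *Dlx2* and 686 in *Nog*. GGCGCC is its own reverse complement, so both strands were searched at once. Within 1500 bases it was found for 35.4% of the genes that rose, 36.5% of those that rose at least 2-fold, 27.9% of those that fell and 21.7% of all tested genes. Within 250 bases the shares were 20.8%, 20.0%, 14.6% and 12.1%. Base composition moved with these shares, as G and C made up on average 61.3%, 62.2%, 59.3% and 56.2% of the 250 bases in the same order, and its part in them was not tested. CAGAC or GTCTG was found within 250 bases for 42.01% of the genes that rose, 34 of the 85, 40.5% of those that fell and 41.6% of all. *Smad7*, *Atoh8*, *Adamtsl2*, *Gja4*, *Foxc2*, *Id2*, *Sox18* and *Rasl11b* had no GGCGCC in these 1500 bases.

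**Figure D2:**
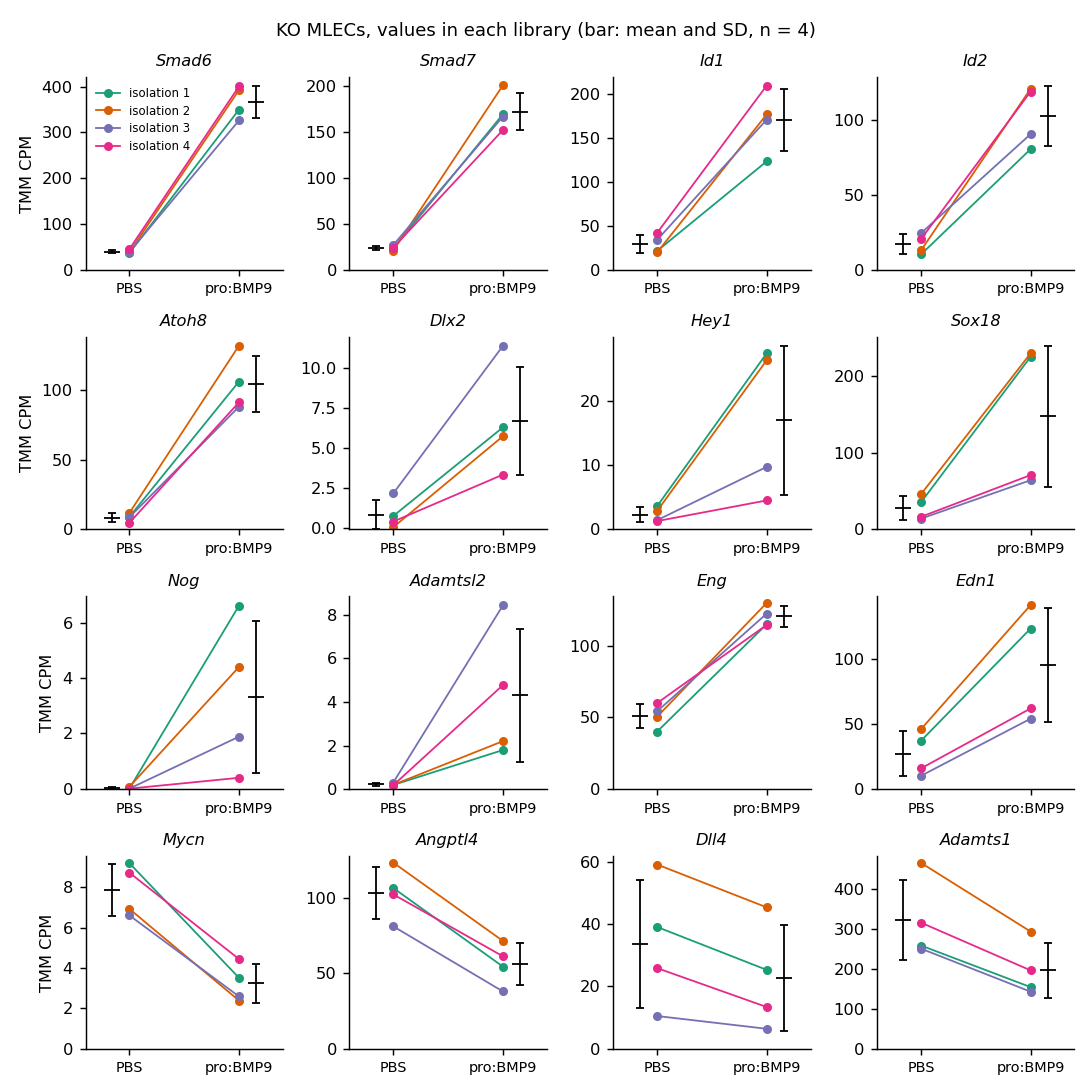
Each panel gives one gene in TMM CPM on a linear axis, with a line joining the PBS and the pro:BMP9 library of each isolation of KO cells and a black bar for the mean and SD of the 4 libraries. The first 3 rows rise and the last row falls. Lines of one gene keep their direction in all 4 isolations although their starting levels differ, as for *Sox18* and *Edn1*, which were higher in isolations 1 and 2.

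Transcription factors of development formed the next group, of which 10 of 25 tested rose (40%) and 2 fell (8%), with a median log2 change of 0.42. *Atoh8* (ENSMUSG00000037621, chr6:72183161-72212561, minus strand), a helix-loop-helix factor of endothelial BMP responses, went from 9.01, 11.8, 8.72 and 4.72 CPM to 106, 132, 87.8 and 90.98 CPM. This was the largest rise among genes above 10 CPM on average, 12.3-fold (log2 fold change 3.62 ± 0.11, adjusted p 2.16e-13), with no overlap. The homeobox factor *Dlx2* stood at 0.761, 0.0654, 2.16 and 0.413 CPM in PBS and 6.28, 5.73, 11.4 and 3.34 CPM with ligand (log2 fold change 2.98 ± 0.35, adjusted p 1.15e-05). Its levels were low and differed several-fold between isolations, but each rose. The neighbouring *Dlx1* rose 2.43-fold with overlapping groups (adjusted p 0.0384), and its call was lost without isolation 2 or 3, at an adjusted p of 0.160 and 0.263. *Snai1*, a repressor that drives mesenchymal transition, rose 4.06-fold (log2 fold change 2.02 ± 0.08, adjusted p 2.16e-12), and *Snai2* 1.37-fold, the latter a call that held in 7 of 10 alternative fits. The GATA factors differed among themselves: *Gata2* rose 1.81-fold and *Gata6* 1.34-fold, whereas *Gata3* fell at a log2 change of -0.26. *Prdm1*, a repressor of lineage genes, fell to 59.6% of PBS.

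Forkhead and SOX factors of vessel identity rose as well. *Foxc2* (ENSMUSG00000046714, chr8:121842910-121845634, plus strand), needed for lymphatic valves, went from 5.14, 9.42, 5.41 and 7.96 CPM to 43.1, 59.4, 44.1 and 43.3 CPM (log2 fold change 2.77 ± 0.10, adjusted p 1.94e-12). Its relatives *Foxc1* and *Foxf1* rose 1.92-fold and 1.49-fold, and of the 26 tested genes that the deposited table places in the forkhead family 7 rose and 1 fell. *Sox18*, which acts in arterial and lymphatic specification, stood at 35.4, 45.98, 14.1 and 16.5 CPM in PBS and 225, 229.7, 64.2 and 70.9 CPM with ligand. Both groups held 2 high and 2 low isolations, yet the lowest treated library lay above the highest PBS library (log2 fold change 2.35 ± 0.10, adjusted p 6.48e-12). *Sox7* and *Tal1* rose 1.35-fold and 1.82-fold, while the ETS factors *Ets1* and *Fli1* fell to 81.5% and 80.9% of PBS. For *Fli1* the call held in 7 of 10 alternative fits. *Nr2f2*, the venous factor COUP-TFII, fell to 78.5% without overlap between the groups (log2 fold change -0.35 ± 0.04, adjusted p 3.61e-05). *Gja4*, the arterial connexin 37, rose from 0.444, 1.64, 0.721 and 2.36 CPM to 3.45, 9.69, 7.72 and 13.9 CPM (log2 fold change 2.78 ± 0.24, adjusted p 2.50e-07), whereas *Gja1*, connexin 43, fell to 81.5%. Of 25 tested lymphatic and arterial-venous genes, 5 rose (20%) and 3 fell (12%), beside 3.68% and 1.92% over all tested genes.

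In the Notch pathway the targets *Hey1*, *Hey2* and *Hes1* rose and the ligands *Dll1* and *Dll4* fell. *Hey1* (ENSMUSG00000040289, chr3:8728419-8732316, minus strand), a transcriptional repressor downstream of Notch and of BMP receptors, went from 3.62, 2.88, 1.44 and 1.3 CPM to 27.4, 26.3, 9.73 and 4.51 CPM (log2 fold change 2.82 ± 0.15, adjusted p 3.38e-10). The treated libraries of isolations 1 and 2 were the highest and that of isolation 4 the lowest, still above all PBS libraries. *Hey2* and *Hes1* rose 3.64-fold and 1.94-fold, and *Lfng*, which glycosylates Notch receptors, rose 2.94-fold from 1.84, 1.64, 1.56 and 1.53 CPM. *Notch1* itself changed by 0.25 ± 0.05 on the log2 scale (adjusted p 0.00398). *Dll4*, the Notch ligand of tip cells, stood at 39.1, 59.1, 10.5 and 25.9 CPM in PBS and 25.3, 45.4, 6.42 and 13.4 CPM with ligand. It was lower with pro:BMP9 in each isolation, although the isolations differed so much that the groups overlapped (log2 fold change -0.65 ± 0.10, adjusted p 0.000267). *Dll1* fell to 73.5% and the Notch regulator *Dtx4* to 68.8% of PBS. In all, 5 of 23 tested Notch genes rose and 3 fell, with a median log2 change of 0.05.

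Secreted antagonists and receptors of the pathway were then considered. Noggin, encoded by *Nog* (ENSMUSG00000048616, chr11:89191464-89193158, minus strand), binds several BMPs and keeps them from their receptors. It had 0, 1, 0 and 0 counts in the PBS libraries and 96, 70, 29 and 6 counts with pro:BMP9, or 6.62, 4.41, 1.88 and 0.392 CPM. The ratio of the summed counts was 213, with a 95% interval of 37.7 to 8442 that covers counting error only (edgeR, adjusted p 1.01e-08). *Nog* was therefore induced from near absence, most in isolation 1 and least in isolation 4. With 0 or 1 count in each PBS library, *Nog* passed the filter on low counts only through libraries that received ligand. Its adjusted p is to be read with that selection in mind. It was tested in 8 of the alternative fits and passed in all 8. *Nbl1*, a further antagonist, rose 1.23-fold, and *Fst*, which binds activins, fell to 79.8% at an adjusted p of 0.0473 that passed the threshold only with isolations 1, 2 and 4 all present. The other 12 tested members of this list were not past the threshold, with log2 changes from -0.29 to 0.09.

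Of 13 tested receptors and co-receptors, 4 rose (30.8%), namely *Eng*, *Bmpr2*, *Acvr1* and *Acvrl1*, and none fell. The remaining *Eng* counts rose from 40.1, 50.5, 54.3 and 59.98 CPM to 115, 129.8, 122 and 115 CPM (log2 fold change 1.23 ± 0.11, adjusted p 2.80e-07), so that with ligand KO cells held 17.6%, 16.7%, 23.3% and 18.7% of the Ctrl level of the same isolation. *Bmpr2* rose 1.42-fold (log2 fold change 0.51 ± 0.06, adjusted p 1.85e-05). *Acvr1*, which encodes the type I receptor ALK2, stood at 47.7, 43.04, 41.7 and 39.6 CPM in PBS and 61.6, 61.6, 59.6 and 49.4 CPM with ligand, without overlap (log2 fold change 0.43 ± 0.05, adjusted p 8.65e-06). *Acvrl1* was higher in all isolations by a small amount (log2 fold change 0.16 ± 0.04, adjusted p 0.0151), a call that held in 7 of 10 alternative fits. Among the ligands, *Bmp4* rose 1.58-fold (log2 fold change 0.66 ± 0.04, adjusted p 1.19e-08) and *Inhba*, the βA chain of activin A, fell to 74.6%, while *Tgfb1* at a log2 change of 0.14 had an adjusted p of 0.0564. The call of *Inhba* held in 7 of 10 alternative fits. The transcripts of *Gdf2*, which encodes BMP9, and *Bmp10* were too few to be tested.

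*Adamtsl2* (ENSMUSG00000036040, chr2:26969391-26998993, plus strand) encodes a matrix protein that binds fibrillin and latent TGF-β binding protein. It stood at 0.19, 0.196, 0.301 and 0.177 CPM in PBS and 1.79, 2.2, 8.43 and 4.77 CPM with pro:BMP9, and its rise was 18.95-fold (log2 fold change 4.24 ± 0.39, adjusted p 5.63e-07). With 3 to 7 counts in each PBS library of KO and Ctrl cells, it too passed the filter on low counts only through libraries that received ligand. Isolations 3 and 4 reached the higher levels, whereas for *Nog* isolations 1 and 2 did. Of 47 tested matrix genes, *Adamtsl2* included, 4 rose (8.51%) and 2 fell (4.26%), beside 3.68% and 1.92% over all tested genes. Elastin, *Eln*, rose 1.69-fold. The proteases *Adamts1* and *Adamts9* fell, *Adamts1* from 259, 466, 251 and 316 CPM to 154, 294, 143 and 196 CPM (log2 fold change -0.73 ± 0.04, adjusted p 8.32e-10).

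Genes that act on vessel tone and growth moved in both directions. *Edn1*, which encodes the vasoconstrictor endothelin-1, stood at 37.2, 46.2, 10.3 and 15.98 CPM in PBS and 124, 142, 54.3 and 62.2 CPM with ligand (log2 fold change 1.88 ± 0.10, adjusted p 3.38e-10). Adrenomedullin, a dilator encoded by *Adm*, fell from 155, 176, 73.8 and 79.9 CPM to 90.1, 114, 48.3 and 54.2 CPM (log2 fold change -0.65 ± 0.05, adjusted p 1.07e-07), its receptor gene *Calcrl* fell to 86.6% and the endothelin receptor gene *Ednrb* to 68.8% of PBS. *Bdkrb2*, a bradykinin receptor gene, rose 3.28-fold. *Ptgs2*, cyclooxygenase-2, went from 82.6, 89.7, 107 and 124 CPM to 284, 326, 179 and 160.4 CPM (log2 fold change 1.20 ± 0.29, adjusted p 0.0147). The rise of *Ptgs2* was uneven, and the adjusted p was 0.0773 without isolation 1 and 0.157 without isolation 2. Among 17 tested genes of the VEGF and angiopoietin pathways, *Kdr* and *Vegfa* rose 1.7-fold and 1.57-fold, while *Pgf* and *Angptl4* fell to 70.3% and 53.5%. Of 30 tested tip cell and sprouting genes 3 rose (10%) and 3 fell (10%). *Cxcr4*, a chemokine receptor gene, fell to 60.9% of PBS, a call that held in 6 of 10 alternative fits, and *Ephb4*, a venous receptor gene, rose 1.53-fold. In the list of adhesion molecules and chemokines 7 of 38 rose (18.4%) and 3 fell (7.89%). *Icam1* and *Sele* rose 1.35-fold and 1.48-fold from high levels, and *Vcam1* and *Cxcl2* fell to 82.1% and 71.2%.

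Measured as CPM gained rather than as fold, large gains were those of *Icam1*, with 457 CPM more, *Sgk1* with 347, *Tnfaip2* with 336 and *Smad6* with 327. *Tnfaip2* was named after its values were seen. *Sgk1*, a serum- and glucocorticoid-regulated kinase gene, went from 183, 248, 185 and 175 CPM to 616, 734, 412 and 416 CPM (log2 fold change 1.43 ± 0.10, adjusted p 1.60e-08). Other large rises outside the lists, also named after their values were seen, were those of *Bcor*, a co-repressor of BCL6, from 85.5, 85.6, 67.1 and 64.6 CPM to 332, 353, 228 and 193 CPM, *Gadd45g* at 3.9-fold and *Hes7* at 4.07-fold. *Rasl11b*, a small GTPase gene, rose 4.35-fold. *Pdk4*, which restrains glucose oxidation, rose 2.15-fold.

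Immediate early genes and their regulators did not move as one. Of 32 tested, 9 rose (28.1%) and 6 fell (18.8%). *Junb*, *Maff* and *Csrnp1* rose 1.75-fold, 1.54-fold and 1.95-fold, whereas *Egr1* fell to 73.9%, *Ier3* to 75.3% and *Zfp36*, which destabilises cytokine mRNAs, to 70.3% of PBS. The call of *Egr1* held in 7 of 10 alternative fits. Among 14 Krüppel-like factors 4 rose (28.6%), led by *Klf10* (log2 fold change 0.94 ± 0.09, adjusted p 1.95e-06). Another 4 fell (28.6%), among them *Klf5* to 61.04% and *Klf11* to 68.7% of PBS. The dual-specificity phosphatases of MAPK signalling were split as well, with *Dusp6* up 2.02-fold and *Dusp10* down to 58.4%. Of the 18 genes of that list, 4 rose (22.2%) and 5 fell (27.8%). Of 27 tested CCN genes and YAP targets, 4 rose (14.8%), including tissue factor, *F3*, at 1.95-fold and *Ccn1* at 1.29-fold, and none fell.

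The falls were smaller than the rises. *Mycn* (ENSMUSG00000037169, chr12:12986094-12991915, minus strand), a driver of growth and proliferation, fell from 9.2, 6.93, 6.61 and 8.73 CPM to 3.52, 2.39, 2.6 and 4.45 CPM (log2 fold change -1.30 ± 0.28, adjusted p 0.0055). The groups did not overlap, though the adjusted p was 0.0613 without isolation 2. *Kcnj2*, an inward rectifier potassium channel gene, fell to 48.1% of PBS and *Ascl2*, a helix-loop-helix factor gene, to 48.3%. The call of *Ascl2* held in 5 of 9 alternative fits. *Depp1*, a FOXO target, stood at 174, 214, 47.1 and 52.1 CPM in PBS and 94.9, 104, 24 and 27.8 CPM with ligand (log2 fold change -0.95 ± 0.09, adjusted p 5.59e-07). It was higher in isolations 1 and 2 in both groups, and each isolation lost nearly the same share. *Angptl4*, an inhibitor of lipoprotein lipase, went from 107, 124, 81.3 and 102 CPM to 54.6, 71.6, 38.1 and 61.4 CPM without overlap (log2 fold change -0.90 ± 0.10, adjusted p 7.29e-06). *Otud1*, a deubiquitinase gene, fell to 51.5% and *Dipk2a* to 51.9%. *Steap4*, a metalloreductase gene, stood at 24.2, 15.6, 40.04 and 46.3 CPM in PBS and 7.18, 3.27, 29.6 and 34.01 CPM with ligand, and its fall was the most uneven, lost without isolation 1 or 2 at an adjusted p of 0.164 and 0.192. *Opn3* fell to 49.9% at an adjusted p of 0.0357, which leaving out any 1 isolation moved to between 0.0771 and 0.201. *Gvin3*, annotated as an unprocessed pseudogene, fell to 52.3% of PBS (log2 fold change -0.93 ± 0.11, adjusted p 1.14e-05). It belongs to a family of near-identical copies, and which copy the reads came from was not tested and is uncertain.

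**Figure D3:**
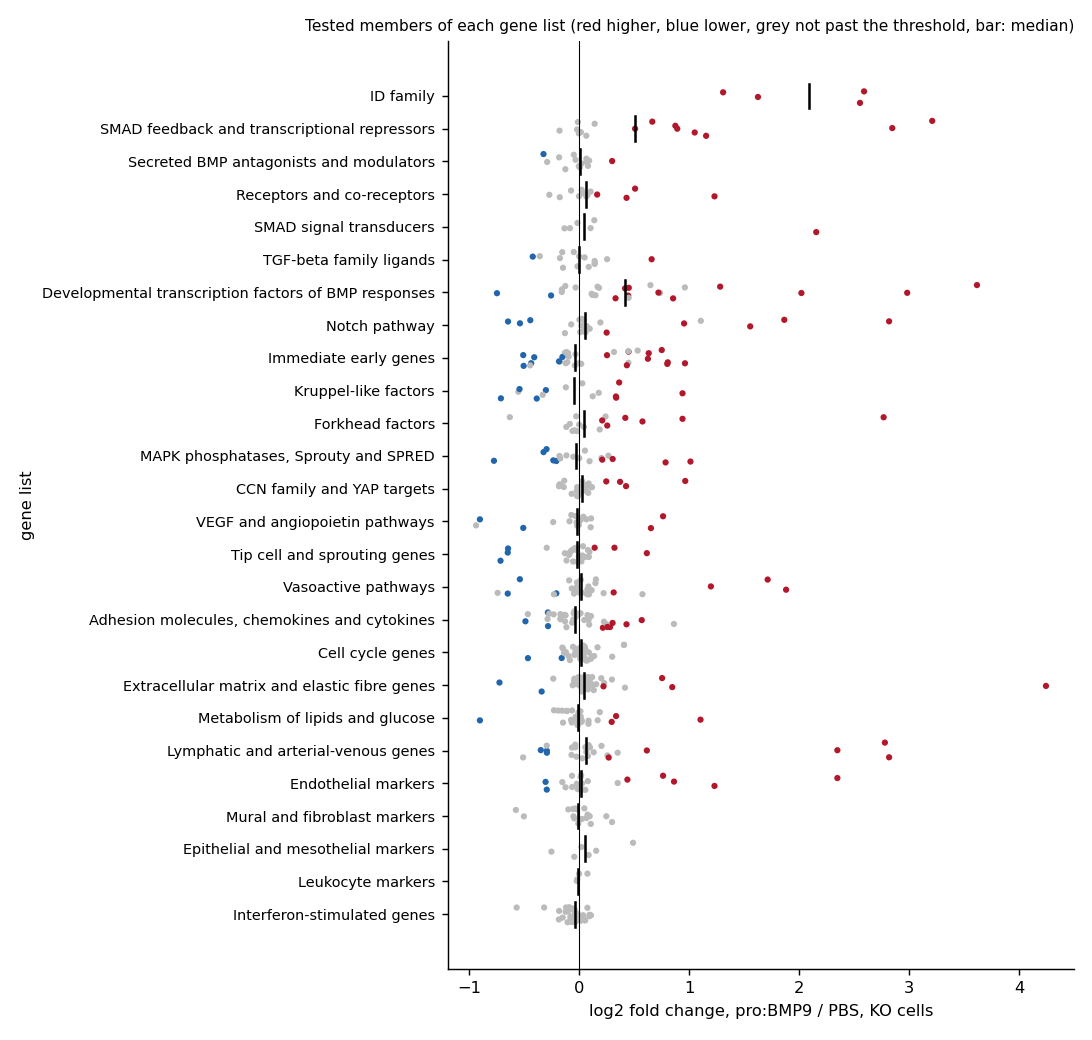
Each row is one list of genes and each point one tested member, placed by its log2 fold change of pro:BMP9 over PBS in KO cells. Red members rose and blue members fell at an adjusted p under 0.05, grey members did not pass, and black bars mark medians. The *Id* genes lie at 1.31 to 2.59 and the interferon-stimulated genes at -0.57 to 0.11. *Nog*, a member of the list of secreted antagonists, is not drawn.

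None of 39 tested interferon-stimulated genes passed the threshold in edgeR's test, and their log2 changes lay between -0.57 and 0.11 with a median of -0.04. The change was above 0 for 12 of the 39, beside 7878 of all 15693 tested genes. At an unadjusted p under 0.05, 1 of the 39 was lower and 0 higher, and DESeq2 called 0. Of 40 cell cycle genes 2 fell (5%) and none rose, *E2f8* to 72.4% of PBS and *Cdk6* by a log2 change of -0.16. Among 30 genes of lipid and glucose metabolism *Pdk4*, *Abca1* and *Cpt1a* rose (10%) and *Angptl4* fell (3.33%), beside 3.68% and 1.92% over all tested genes. Of 22 endothelial markers 5 (22.7%) rose, namely *Sox18*, *Eng*, *Tal1*, *Kdr* and *Sox7*, and 2 (9.09%) fell, with a median log2 change of 0.01.

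Long non-coding RNA genes made up 3.12% of the genes that rose and 2.33% of those that fell, against 8.56% of all tested genes. They were thus called less often than genes as a whole, but most of those that rose lay near a coding gene that rose. Of 18 that rose, 13 lay within 10000 bases of a coding gene past the threshold in KO cells, and for all 13 at least 1 such coding gene rose. By comparison, 11.3% of the 1319 that were not called lay as near to a coding gene past the threshold. *Gm20544* (ENSMUSG00000092569, chr18:75498403-75500159, minus strand), which starts next to *Smad7* and points away from it, went from 1.4, 1.18, 0.842 and 1.42 CPM to 6.07, 5.41, 5.45 and 4.77 CPM (log2 fold change 2.16 ± 0.21, adjusted p 1.54e-06). *Gm28592* overlaps *Phlda1* on the other strand, and their log2 changes were 1.09 and 1.19. *Gm13070* and *Spsb1* rose by 1.61 and 1.19, and *Hoxb3os* rose with *Hoxb3* and *Hoxb2* by 0.76, 0.61 and 1.09. The call of *Hoxb3os* held in 6 of 10 alternative fits, and without isolation 1 its adjusted p was 0.122 in edgeR's test. Of 7 that fell, 2 (28.6%) lay as near to a coding gene past the threshold, which fell as well, and the other 5 did not. *Gm14207* lies opposite *Dll4* (-0.97 beside -0.65) and *B130024G19Rik* opposite *Nr2f2* (-0.95 beside -0.35). The calls of *Gm14207* and *B130024G19Rik* each held in only 4 of 9 alternative fits. The pairs were looked for after the values were seen. The strand setting of the counting is not given in the sources used here, so reads of a gene and of its antisense partner cannot be told apart.

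The same genes were set beside the response of Ctrl cells to sENG(M):BMP9, which shares isolations but no library with that of KO cells. In Ctrl cells 920 genes rose (5.86%) and 601 fell (3.83%). Of the 577 genes that rose in KO cells, 526 also rose in Ctrl cells, which is 91.2% of the KO list and 57.2% of the Ctrl list. For falls, 261 genes were shared, 86.7% of the KO list and 43.4% of the Ctrl list. The difference between both responses, which is the test of whether they differ, was past the threshold for no gene in edgeR's quasi-likelihood test. At an unadjusted p under 0.05 it was so for 565 genes (3.60%), and DESeq2 called none either. The median half-width of the 95% interval of the difference was 0.26 on the log2 scale over all tested genes. Over the 85 genes that rose at least 2-fold it was 0.48. These intervals are not adjusted for the number of tested genes, so differences larger than these could also miss the adjusted threshold. Of those 85 genes, chosen by their KO values, 64 had a smaller rise in KO than in Ctrl cells, with a median difference of -0.19, beside 0.0030 and 48.9% below 0 over all tested genes.

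For single genes the intervals differed in width. *Smad7* differed by -0.02 (95% interval -0.27 to 0.23) between KO and Ctrl cells, *Atoh8* by -0.02 (95% interval -0.38 to 0.34), *Id1* by 0.05 (95% interval -0.33 to 0.43) and *Id3* by 0.05 (95% interval -0.17 to 0.27). None of these intervals went below -0.38 on the log2 scale. *Smad6* differed by -0.24 (95% interval -0.42 to -0.07), *Hey1* by -0.73 (95% interval -1.20 to -0.25), *Foxc2* by -0.43 (95% interval -0.75 to -0.11), *Smurf2* by -0.20 (95% interval -0.31 to -0.10) and *Pmepa1* by -0.49 (95% interval -0.71 to -0.26), each with an interval below 0 but without passing the adjusted threshold. *Bmp4* differed by -0.29 (95% interval -0.42 to -0.16). For *Adamtsl2*, *Nog* and *Dlx2* the few counts left wide intervals: *Adamtsl2* differed by -0.93 (95% interval -2.49 to 0.63) and *Dlx2* by -0.28 (95% interval -1.39 to 0.82). *Nog* had 603 counts with ligand in Ctrl cells and 1 count in PBS, a ratio of 581 (95% interval 104 to 22979). In KO cells the ratio was 213 (37.7 to 8442). These intervals overlap, which is no test of a difference, and both rest on 1 count in PBS. The fitted difference for *Nog* was -1.46 on the log2 scale (95% interval -5.63 to 2.70), too wide to tell the responses apart. With ligand, *Nog* was lower in KO than in Ctrl cells of every isolation, at 6.62, 4.41, 1.88 and 0.392 against 16.2, 15.1, 5.41 and 0.693 CPM. *Adamtsl2* was as well, at 1.79, 2.2, 8.43 and 4.77 against 6.54, 5.49, 12.4 and 17.2 CPM. These ligand levels alone were not tested here. The study compared ligand-treated KO with Ctrl cells in these libraries and reported *Nog* and *Adamtsl2* among its changed genes, with the largest fold changes. Its qPCR, with the same ligand forms, gave a lower fold induction of both genes in KO cells. In the opposite direction, the log2 change of *Eng* was larger in KO cells, by 0.75 (95% interval 0.45 to 1.05), and that of *Fosb* by 0.86 (95% interval 0.39 to 1.32). For *Eng*, the deleted gene, this is a ratio over the small level that remained. Its mean went from 51.2 to 120 CPM in KO cells and from 460 to 641 CPM in Ctrl cells. The difference for *4930579G18Rik*, which fell in KO cells and changed by 0.17 in Ctrl cells, was -1.15 (95% interval -1.80 to -0.50). *Mycn* changed by -2.13 in Ctrl cells, a difference of 0.83 (95% interval -0.07 to 1.73).

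**Figure D4:**
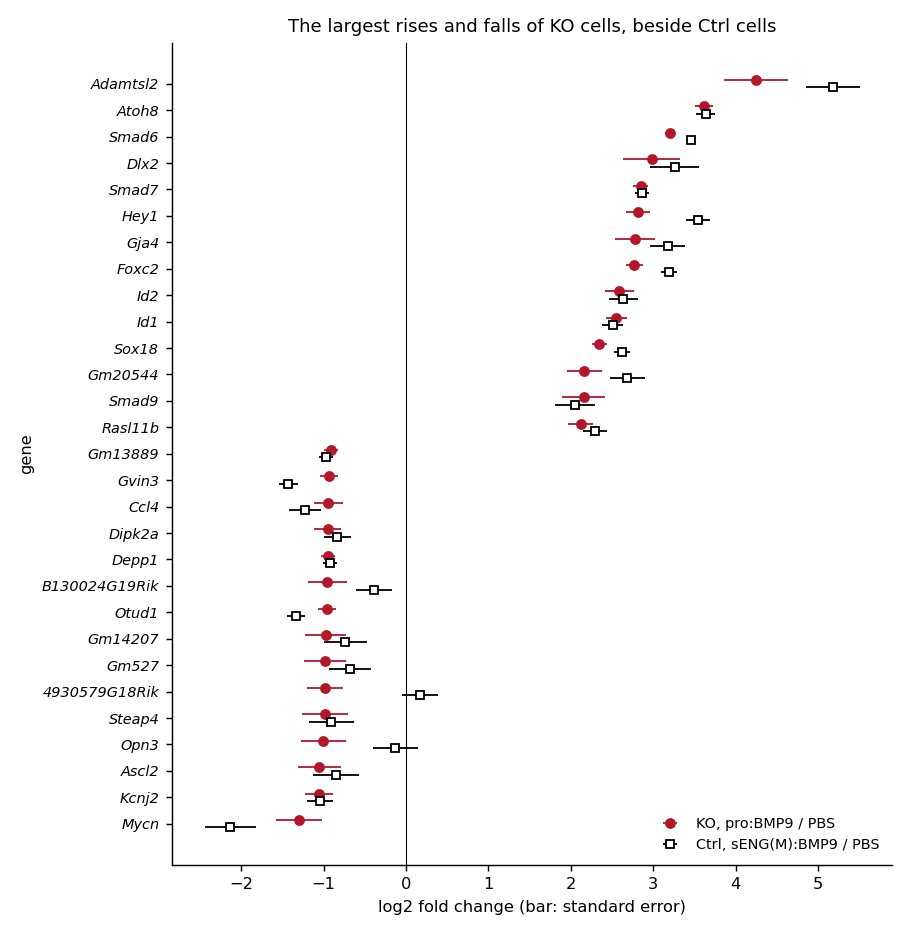
The log2 fold changes of the largest rises and falls of KO cells (red circles, pro:BMP9 over PBS) are drawn beside those of Ctrl cells for the same genes (open squares, sENG(M):BMP9 over PBS), with standard errors as bars. *Adamtsl2*, *Mycn* and *Hey1* lie apart by -0.93, 0.83 and -0.73 (KO minus Ctrl), *Smad7*, *Atoh8* and *Id1* by -0.02, -0.02 and 0.05, and *4930579G18Rik* and *Opn3* lie near 0 in Ctrl cells only. *Nog* is not drawn, and no difference passed the adjusted threshold.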

How the data were processed

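Poly-A selected, stranded RNA libraries of MLECs were sequenced, 16 in all, and assigned to groups by their labels. The authors deposited raw read counts per gene, aligned to GRCm39. The submitters' processing notes name HISAT2 2.0.5, featureCounts 1.5.0-p3 and DESeq2 1.26.0. The annotation release and strand setting are not given in the sources used here. The deposited counts precede the authors' quantile normalisation and batch correction. CPM, log2 fold changes and p-values were computed here from these counts. Library totals lay between 14869115 and 17242117 counts, and counting intervals cover counting error only.

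Counts were filtered with filterByExpr (minimum count 10, minimum total count 15), normalised by TMM and fitted in edgeR 4.0.16 (R 4.3.3) over all 16 libraries, so that the 4 groups share the spread. The isolation entered as a block: labels give same-numbered libraries the same isolation name, and the deviations of same-numbered KO libraries from their group means correlated at 0.70 to 0.80 (4 pairs). The threshold was an adjusted p under 0.05. The 3 comparisons across genes were KO ligand against PBS, Ctrl ligand against PBS and their difference. Errors after ± are standard errors. CPM carry no prior count and log2 changes of single isolations a prior count of 2. The procedure was tested on simulated data. Starts, exons and upstream sequence came from GENCODE M39, in which 3440 of 15636 matched genes had the deposited start and end.

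Genes named are *Eng*, genes the study names for these libraries, the 15 largest rises and falls (adjusted p under 0.05, same direction in all 4 isolations, mean of at least 1 CPM over the KO libraries) and list members, except where stated. The members and lists were chosen with earlier results of these data known. Alternatives were no block, DESeq2 1.42.0, RLE size factors, no filter, at least 10 counts in every library, the 8 libraries alone and leaving out each isolation. A few genes and 1 upstream sequence are not reported here.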

Additional observations from a re-analysis of the deposited data

Results flagged for a closer look

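Among 132 genes looked at one by one, 6 had 1 isolation that stood apart from the other 3 in its log2 change with pro:BMP9 in KO cells by Dixon's criterion, which chance gives in about 1 in 20 groups. *Pmepa1* changed by 1.43 in isolation 3 against 1.04 to 1.09 in the others, and *Rasl11b* by 2.46 in isolation 2 against 1.94 to 1.98. *Junb* changed by 0.66 in isolation 4 against 0.83 to 0.86. *Snai2* changed by 0.20 in isolation 3 against 0.52 to 0.54. *Ier3* changed by -0.61 in isolation 4 against -0.35 to -0.34, and *Prdm1* by -0.40 in isolation 2 against -0.90 to -0.85. Each of the 6 genes kept its direction in all 4 isolations.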

How the results depend on the processing

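Directions held while counts moved. Without the replicate block, 91 genes passed in KO cells (80 higher, 11 lower) and 167 in Ctrl cells (136 higher, 31 lower), against 878 genes in KO cells and 920 higher and 601 lower in Ctrl cells with it. All 91 were among the 878. Of the 126 named genes that passed, 41 did so without the block, 122 of 125 with DESeq2, 126 with RLE size factors, 126 with no filter on low counts, all 111 tested with at least 10 counts in every library and 123 of 124 in the fit of the 8 libraries alone. Leaving out 1 isolation gave 573 (without isolation 2) to 745 genes in KO cells, of which 178 to 234 were lower (178 without isolation 2, 193 without isolation 1), and 370 (without isolation 2) to 585 lower in Ctrl cells. The fit then has fewer samples. The difference between responses, with no gene past the threshold otherwise, gave 52 genes (27 higher, 25 lower) with no filter on low counts, where 29339 genes were tested. That was the only such alternative to give any. The log2 change of *Acvr2a* turned from 0.022 to -0.0081 without the block and lay between -0.047 and 0.11 when 1 isolation was left out, and that of *Smad4*, -0.016, lay between -0.045 and 0.019. Neither passed the threshold, and the cause was not tested. Few counts limit *Nog*, *Adamtsl2* and *Dlx2*.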

Other observations

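Grouped by the families of transcription factors in the deposited table, rises were spread unevenly. Of 63 tested homeobox genes 12 rose and 2 fell, and of 52 basic helix-loop-helix genes 15 rose and 4 fell, beside 3.68% higher and 1.92% lower over all tested genes. The C2H2 zinc finger genes, 473 in number, held 20 rises and 21 falls. Of 8 genes with a SMAD MH1 domain 3 rose, namely *Smad6*, *Smad7* and *Smad9*, and none fell.

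*Foxa3*, a forkhead factor of gut and liver, had 1, 1, 0 and 3 counts in the PBS libraries of KO cells and 28, 29, 5 and 5 with pro:BMP9, a ratio of summed counts of 14.2 (95% interval 5.78 to 45.1, counting error only). It was named after its values were seen. Of the 85 genes that rose at least 2-fold in KO cells, 80 also rose in Ctrl cells. The other 5 were *Mal*, *Tmem121b*, *A330041J22Rik*, *0610040F04Rik* and *Gm9768*, also named after their values were seen, with log2 changes of 0.09 to 1.11 in Ctrl cells. The smallest unadjusted p of the difference among these 5 was 0.0125 in edgeR's test.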
